A study of Mus musculus with 6 samples.

Results

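The genes described here are 10 genes of NRF2 signalling, glutathione synthesis and the thioredoxin system, measured in P14 CD8+ T cells from tumor and from spleen. They were taken by symbol (Nfe2l2, Keap1, Gclc, Gclm, Gsr, Gss, Txn1, Txnrd1, Srxn1 and Nqo1), and each symbol matched 1 of the 55335 Ensembl gene identifiers in the count table. All 10 passed the filter on low counts and were tested.

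P14 cells are CD8+ T cells with a transgenic receptor for the GP33-41 peptide. Donor P14 cells were given to C57BL/6 mice on day 11 after the animals had received B16-GP33-41 melanoma cells, a skin tumor line that carries this peptide. The group P14 TIL (3 libraries) was sorted by flow cytometry from those tumors after a Percoll step, and the group P14 Sp (3 libraries) was sorted from the spleens of tumor-bearing mice, for which no Percoll step is described. Both groups are labelled C57BL/6, P14 TCR transgenic and 10 weeks of age. Neither group is from a host without a tumor, per the labels' protocols. The time between transfer and sorting, and whether each library is 1 mouse or a pool, were not stated in the sources used here. The p-values therefore speak to the spread among these 6 libraries, and that spread may be technical.

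NRF2, encoded by Nfe2l2, is a transcription factor that KEAP1 holds in the cytosol and passes to degradation until oxidants or electrophiles modify KEAP1. NRF2 then binds antioxidant response elements with small MAF partners and drives genes that make glutathione, keep thioredoxin reduced and supply NADPH. In T cells these systems buffer the oxidants that come with receptor signalling and with rapid growth.

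Library totals were 36198681 to 38263483 counts in tumor and 35095261 to 37650999 in spleen (exact permutation test, two-sided, p = 0.7, 3 libraries in each tissue). Levels are given as CPM, the count scaled to the library total in the usual way. A count of 0 would allow at most 0.0784 to 0.0855 CPM, counting error only. Tumor libraries differed more among themselves than spleen libraries did (chi-square per degree of freedom 9.06 to 33.2 against 2.19 to 3.48). The CD8 T cell markers summed to 3674 to 3943 CPM in tumor and 4034 to 4099 CPM in spleen, and Cd8b1 was the highest of them. Of the 7, 1 was higher in tumor (Cd8a, 645 against 364 CPM) and 4 were not called. The 2 lower were Cd8b1 (751 against 1174 CPM) and Cd2 (311 against 366 CPM). All 10 B and plasma cell markers were lower in tumor (summed 7.85 to 9.65 CPM against 481 to 496), with Cr2 at 0 there. All 13 macrophage and monocyte markers were lower (41.1 to 43.4 against 285 to 299.7 CPM), as were 8 of 8 tested dendritic cell markers (60.1 to 66.9 against 649 to 654 CPM), with Clec9a, Siglech and Cd209a at 0 in tumor. The 6 tested neutrophil markers were lower too (0.601 to 0.829 against 18.3 to 21.2 CPM), whereas erythroid and platelet markers split into 5 higher and 5 lower (247 to 275 against 222 to 225 CPM). Among all genes tested, 35.9% were called lower and 34.8% higher. Melanoma markers did not run one way. Their sum of 21.6 to 23.1 CPM in tumor and 32.9 to 33.6 in spleen was carried by Pmel (8.54 against 19.8 CPM) and Gpnmb (12.2 against 12.8). The pigment cell gene Dct was higher in tumor, with 16, 18 and 17 counts against 0, 1 and 0 (edgeR adjusted p = 2.0e-05). Tyrp1 and Mlana, not tested, had 31, 24 and 9 and 8, 6 and 5 counts in tumor against 0 in every spleen library for Tyrp1 and 0, 0 and 2 for Mlana. Fibroblast and endothelial markers, mostly Pecam1, summed to 52.3 to 57.1 and 86.4 to 88.5 CPM, and NK and CD4 T cell markers to 25.0 to 29.2 and 35.3 to 39.1. Of the NK and CD4 T cell markers, Cd4 (1.07 against 7.52 CPM) and Eomes (12.0 against 15.2 CPM) were lower in tumor. Ncr1, Klrb1c and Foxp3 were not called. The part of these other cells in the results below was not tested. In such bulk samples fewer cells of a type and less RNA per cell cannot be told apart.

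Of the 10 genes, 6 were higher in tumor, 3 were lower and Gclc did not pass the test (edgeR quasi-likelihood test, Benjamini-Hochberg adjusted over all genes tested, threshold 0.05). The rises were in glutathione reductase, glutathione synthetase, thioredoxin, thioredoxin reductase, sulfiredoxin and, with a reservation given below, the modifier subunit of glutamate-cysteine ligase. The falls were in Nfe2l2, Keap1 and Nqo1. Across the 19783 genes tested, 34.8% were called higher, 35.9% lower and 70.7% in either direction, so 9 of 10 called stands against a background in which most genes were called. The median difference was 0.38 on the log2 scale over the 10 genes and -0.02 over all genes tested. The libraries of the 2 tissues did not overlap for any of the 10 genes, against 74.5% of all genes tested. Against a null of a 2-fold change, 1 of the 10, Srxn1, was higher and 0 were lower. By that rule 5.87% of tested genes were higher, 9.42% were lower and 15.3% were called either way.

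**Figure D1:**
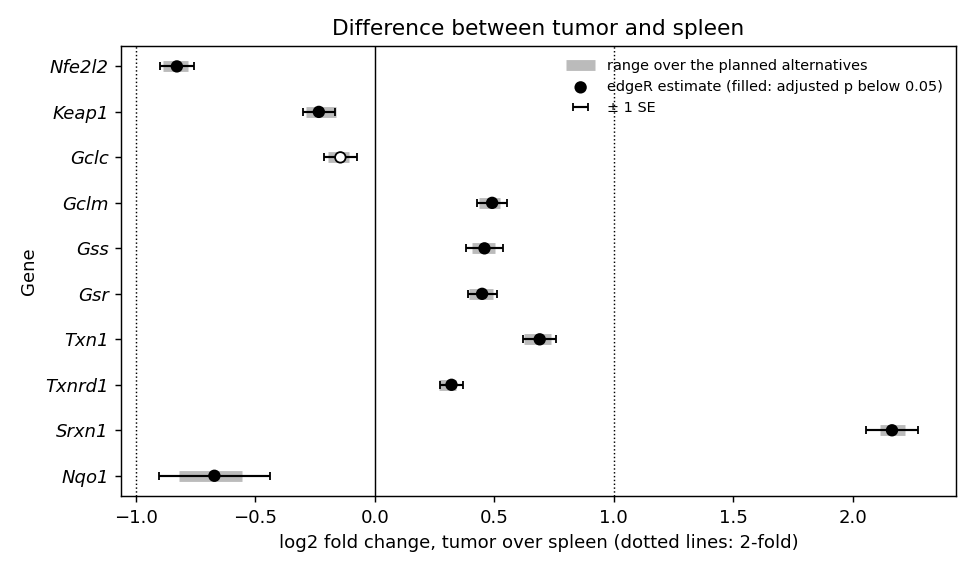
Differences between tumor and spleen for the 10 genes, as log2 fold changes of tumor over spleen (edgeR, 3 libraries per tissue), with bars of 1 SE and grey bands for the range over the alternative analyses. Srxn1 lies beyond the dotted 2-fold line at 2.16, Gclc (open point) did not pass the test, and Nfe2l2, Keap1 and Nqo1 lie below 0.

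Nfe2l2 (ENSMUSG00000015839.6, mm10 chr2:75675513-75704641, minus strand) encodes NRF2 itself. Its level was 23.5, 24.0 and 27.7 CPM in the tumor libraries and 46.4, 44.7 and 45.0 CPM in the spleen libraries. Every tumor library lay below every spleen library. The means were 25.1 ± 2.28 CPM for tumor against 45.4 ± 0.940 for spleen (SD, n = 3 each), a 1.78-fold lower level in tumor (-0.83 on the log2 scale, SE 0.07, edgeR adjusted p = 1.2e-06). That difference was larger than those of 67.9% of the genes tested. The promoter of Nfe2l2 itself carries an antioxidant response element core, shown with the others below.

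Keap1 (ENSMUSG00000003308.15, chr9:21229730-21239361, minus strand) encodes the sensor that binds NRF2 for ubiquitination. Tumor libraries held 109, 108 and 96.2 CPM of it, and spleen libraries held 124, 127 and 125. The tumor libraries were again all below the spleen libraries, by a small margin. The means of 104 ± 7.14 and 125 ± 1.85 CPM (SD, n = 3 each) gave a 1.18-fold lower level in tumor (-0.23, SE 0.07, edgeR adjusted p = 0.0077). An antisense gene model, Gm16754, overlaps 10.9% of the Keap1 exon bases. Its counts of 982, 1085 and 980 in tumor and 1043, 1156 and 1050 in spleen would put an estimated 3.59% of the Keap1 count on the shared stretch.

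Levels of different genes were compared per kilobase of exon. The ratio of Nfe2l2 to Keap1 within each library was 0.266, 0.276 and 0.356 in tumor and 0.464, 0.434 and 0.445 in spleen. The tissues did not overlap in this ratio, a quantity chosen after its values were seen (two-sided exact permutation p = 0.1, the smallest that 3 against 3 libraries allow).

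Glutathione is made in 2 steps, by glutamate-cysteine ligase (catalytic subunit Gclc, modifier subunit Gclm) and by glutathione synthetase (Gss), and glutathione reductase (Gsr) returns its oxidized form to the reduced one. Gclc (ENSMUSG00000032350.9, chr9:77754535-77794485, plus strand) gave 43.1, 40.8 and 40.5 CPM in the tumor libraries against 48.4, 48.5 and 43.5 in the spleen libraries. The highest tumor library and the lowest spleen library were next to each other without crossing. The means of 41.5 ± 1.44 and 46.8 ± 2.88 CPM (SD, n = 3 each) did not differ past the threshold (-0.14, SE 0.07, edgeR adjusted p = 0.083). Gclc passed the threshold as lower in tumor under 5 alternative analyses, with differences of -0.17 to -0.20, so its call depends on the scaling, on the filter and on single libraries.

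Gss (ENSMUSG00000027610.17, chr2:155563181-155592810, minus strand) gave 19.9, 19.4 and 18.6 CPM in the tumor libraries against 14.4, 13.8 and 14.9 in the spleen libraries. All tumor libraries were above all spleen libraries. The means of 19.3 ± 0.626 and 14.3 ± 0.531 CPM (SD, n = 3 each) gave a 1.37-fold higher level in tumor (0.46, SE 0.08, edgeR adjusted p = 0.00025). Acss2, an acetyl-CoA synthetase gene on the opposite strand, shares 395 exon bases with Gss, and an estimated 6.64% of the Gss count could lie there. Acss2 counts ran the other way, at 880, 784 and 794 in tumor and 2411, 2597 and 2428 in spleen.

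Gsr (ENSMUSG00000031584.16, chr8:33652523-33698163, plus strand) reached 86.6, 97.8 and 92.4 CPM in the tumor libraries against 68.9, 71.3 and 66.6 in the spleen libraries. The tissues did not overlap. The means of 92.2 ± 5.61 and 68.9 ± 2.35 CPM (SD, n = 3 each) gave a 1.36-fold higher level in tumor (0.45, SE 0.06, edgeR adjusted p = 4.8e-05). Gsr shares no 50-base sequence with another gene model, 50 bases being the read length.

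Gclm (ENSMUSG00000028124.15, chr3:122245557-122270732, plus strand) is listed with 580, 586 and 651 CPM in the tumor libraries against 451, 410 and 457 in the spleen libraries, without overlap. The means were 606 ± 39.1 and 439 ± 25.7 CPM (SD, n = 3 each), and the difference passed the test (0.49, SE 0.06, edgeR adjusted p = 2.4e-05). These values cannot be read as Gclm expression alone. A processed copy of Ppia, the abundant cyclophilin A gene, lies inside Gclm on the same strand (Gm6061, chr3:122256728-122257219), and 244 of its 492 bases fall in an exon of a Gclm transcript.

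The counts at this locus ran with Ppia in every library. Ppia had 40319, 41306 and 45835 counts in tumor and 30259, 29497 and 29420 in spleen. Gm6061 had 41274, 42067 and 45880 in tumor and 30910, 29685 and 30157 in spleen, and it holds 88.7% of its 50-base sequences in common with Ppia. Gclm had 21164, 22424 and 23556 in tumor and 16507, 15435 and 16037 in spleen. Its count was thus 51.3% to 53.4% of that of Gm6061 in each of the 6 libraries. Another Ppia copy, Gm10123 on chromosome 9, had 42962, 43827 and 47763 counts in tumor and 32155, 30947 and 31349 in spleen. Gm17494, a model on the opposite strand of the Gclm locus that contains the whole of Gm6061, had 104.5% to 105.4% of the Gm6061 count. Similar counts thus stood in the table at several copies, and on both strands.

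Reads on the stretch shared with Ppia copies were estimated at 84.1% of the Gclm count from Gm6061 and at 88% from Gm10123. The log2 differences were 0.52 for Ppia, 0.52 for Gm6061 and 0.49 for Gclm, so a change in Gclm and a change in Ppia cannot be told apart here. Without Gclm, 5 of the 9 remaining genes were higher in tumor and 3 were lower, a count added after the data were seen.

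**Figure D2:**
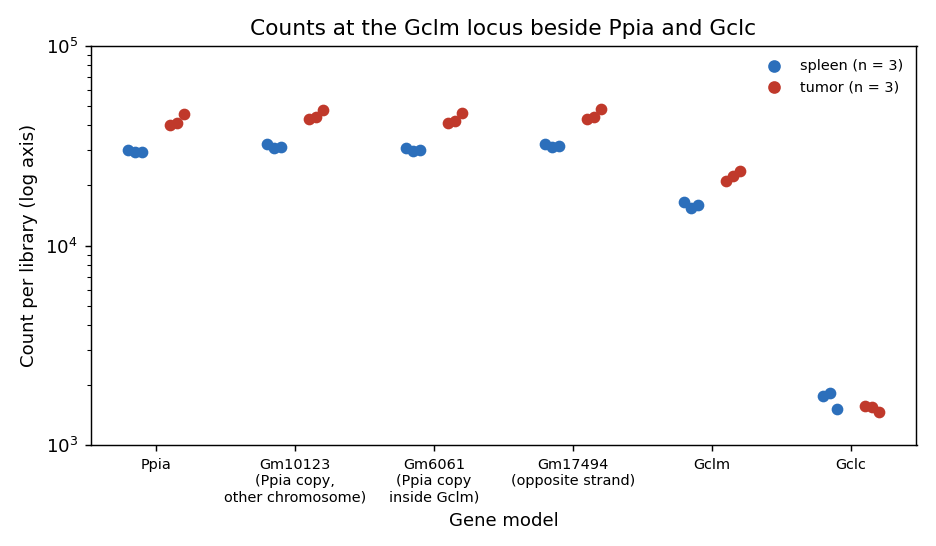
Counts per library (log axis) at Ppia, 2 of its copies, the opposite-strand model Gm17494, Gclm and Gclc, with 3 spleen and 3 tumor libraries as points. Gclm stands at 51.3% to 53.4% of the Ppia copy inside it in every library, and the 5 models on the left are all higher in tumor, whereas Gclc is not.

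Thioredoxin reduces protein disulfides with electrons that thioredoxin reductase takes from NADPH, and sulfiredoxin repairs peroxiredoxins that have been over-oxidized. Txn1 (ENSMUSG00000028367.5, chr4:57943373-57956411, minus strand), the cytosolic thioredoxin, reached 184, 183 and 217 CPM in the tumor libraries against 127, 117 and 124 in the spleen libraries. All tumor libraries were above the spleen libraries, and the third tumor library was the highest. The means of 195 ± 19.4 and 123 ± 5.11 CPM (SD, n = 3 each) gave a 1.61-fold higher level in tumor (0.69, SE 0.07, edgeR adjusted p = 3.8e-06). A processed pseudogene on chromosome 1, Txn-ps1, had 26.1% to 30.1% of the Txn1 count in the 6 libraries. It shares 25 sequences of 50 bases with Txn1. With its counts added to Txn1 the log2 difference was 0.69, an alternative chosen after the data were seen.

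Txnrd1 (ENSMUSG00000020250.10, chr10:82833951-82897712, plus strand), the cytosolic thioredoxin reductase and a selenoprotein, reached 167, 174 and 173 CPM in the tumor libraries against 141, 139 and 139 in the spleen libraries. The spread within each tissue was small and the tissues did not overlap. The means were 171 ± 3.63 and 140 ± 1.30 CPM (SD, n = 3 each), a 1.25-fold higher level in tumor (0.32, SE 0.05, edgeR adjusted p = 0.00014). This is a modest change in these data, larger than those of 31.5% of the genes tested.

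Srxn1 (ENSMUSG00000032802.8, chr2:152105516-152111376, plus strand), which encodes sulfiredoxin, had the largest difference of the 10. Its level was 11.9, 13.1 and 11.5 CPM in tumor (434, 502 and 418 counts) and 2.82, 2.71 and 2.79 CPM in spleen (103, 102 and 98 counts). Tumor libraries stood far above spleen libraries, with little spread in either tissue. The means of 12.2 ± 0.825 and 2.77 ± 0.0565 CPM (SD, n = 3 each) gave a 4.48-fold higher level in tumor (2.16, SE 0.11, edgeR adjusted p = 1.2e-08). Against a null of a 2-fold change the adjusted p was 7.5e-07 (edgeR), and the difference exceeded those of 92.6% of the genes tested. Srxn1 shares no 50-base sequence with another gene model.

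Nqo1 (ENSMUSG00000003849.8, chr8:107388225-107403206, minus strand), a quinone reductase and a widely used NRF2 target, was the least abundant of the 10. Its level was 0.548, 0.784 and 0.635 CPM in tumor (20, 30 and 23 counts) and 1.23, 1.04 and 0.940 CPM in spleen (45, 39 and 33 counts). The tissues did not overlap, although each value rests on few counts. The means of 0.656 ± 0.119 and 1.07 ± 0.148 CPM (SD, n = 3 each) gave a 1.59-fold lower level in tumor (-0.67, SE 0.23, edgeR adjusted p = 0.022). The call was lost without P14 TIL replicate 1 (edgeR adjusted p = 0.072), without P14 Sp replicate 1 (0.093) and in DESeq2 (0.074). In spleen, where B cell and myeloid markers were higher, 17.6% of the genes tested had a lower mean CPM than Nqo1.

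**Figure D3:**
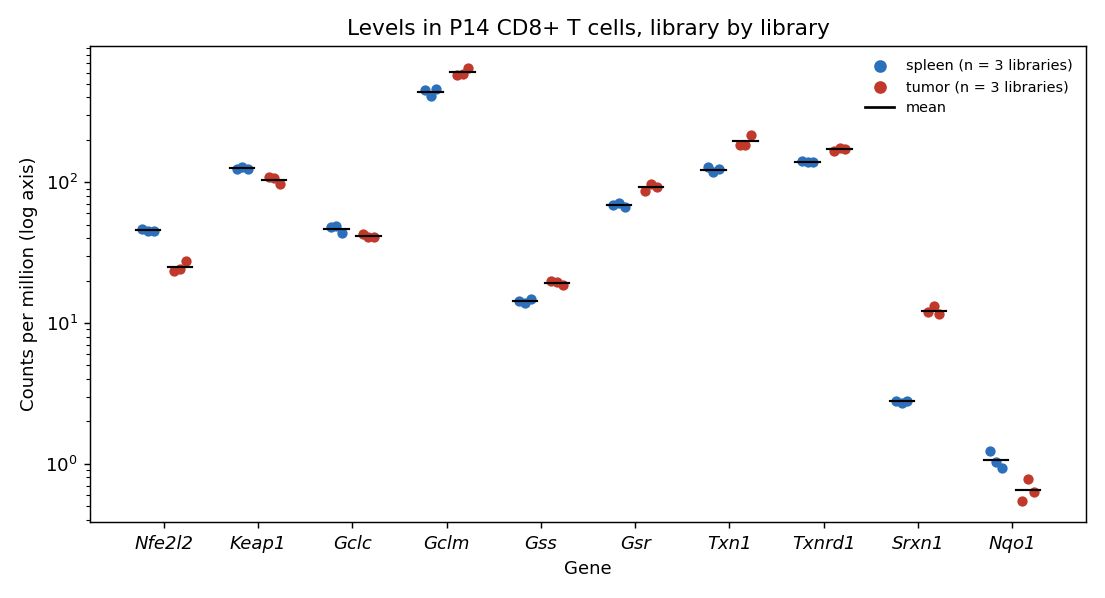
CPM of the 10 genes in each library on a log axis, with 3 spleen and 3 tumor libraries as points. Srxn1 is far higher in tumor, Nfe2l2, Keap1 and Nqo1 are lower, and Gclc runs from 40.5 to 43.1 CPM in tumor and 43.5 to 48.5 CPM in spleen.

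On the scale of CPM per kilobase of exon, Txn1 was the most abundant in both tissues, at 185 ± 18.4 in tumor and 117 ± 4.86 in spleen (SD, n = 3 each). Gclm came next in the table but carries the reads described above. In tumor the others followed as Gsr 33.5, Txnrd1 24.2, Keap1 22.3, Gclc 11.0, Nfe2l2 6.60, Srxn1 4.32, Gss 3.27 and Nqo1 0.42, and no neighbours in that order overlapped. In spleen the order was Keap1 26.7, Gsr 25.0, Txnrd1 19.8, Gclc 12.4, Nfe2l2 12.0, Gss 2.43, Srxn1 0.983 and Nqo1 0.688. There only Gclc and Nfe2l2 overlapped. Keap1 thus ranked above Gsr and Txnrd1 in spleen and below both in tumor, and Srxn1 ranked below Gss in spleen and above it in tumor.

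RefSeq promoter windows, running from 250 bases before to 50 bases after a transcription start on GRCm38.p6, were found for 8 of the 10 genes, in 10 windows. Gclc and Gsr had none in the table used. The antioxidant response element core, searched as TGACNNNGC on both strands, was in 4 of the 10 windows, 1 each for Nfe2l2, Gclm, Txnrd1 and Srxn1, and in 12.4% of all 32851 windows. The AP-1 site, searched as TGANTCA on both strands, was in 1 window, that of Srxn1, and in 7.81% of all windows. Letters can match both motifs, but no base in these windows did so in the forms searched. The stretches below show the matches that lie before the start, with the match in capitals. They are shown because Srxn1 had the largest change and because Nfe2l2 was lower and Txnrd1 higher in tumor. Gclm is shown as well, although its count cannot be read as Gclm expression alone.
Nfe2l2 (chr2:75704855-75704913, minus strand): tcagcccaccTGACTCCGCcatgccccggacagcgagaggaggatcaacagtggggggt
Gclm (chr3:122245413-122245471, plus strand): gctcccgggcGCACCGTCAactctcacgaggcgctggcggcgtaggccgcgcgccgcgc
Txnrd1 (chr10:82859104-82859162, plus strand): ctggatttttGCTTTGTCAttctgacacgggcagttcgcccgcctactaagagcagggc
Srxn1 (chr2:152105412-152105523, plus strand): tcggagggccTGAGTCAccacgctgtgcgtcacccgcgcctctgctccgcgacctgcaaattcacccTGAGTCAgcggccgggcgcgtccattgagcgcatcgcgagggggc

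In Nfe2l2 the capitals mark the antioxidant core on the printed strand, and in Gclm and Txnrd1 they mark its reverse complement. In Srxn1 they mark 2 AP-1 matches, which begin 102 and 45 bases before the start. The match at 45 bases is followed by gc, so it differs from the searched core TGACNNNGC only by G in place of C. A looser form of the core was not searched. The match of Srxn1 to the searched core lies after the start and is not printed. The core thus stood in the promoter windows of Nfe2l2, which was lower in tumor, and of Txnrd1 and Srxn1, which were higher. It was not in the other windows of Txnrd1. Nor was it in those of Gss and Txn1, which were higher, or of Keap1 and Nqo1, which were lower. A match is a run of letters and was not tested for binding.

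Of 12 tested partners and regulators of NRF2, 5 were higher in tumor (41.7%), 4 were lower (33.3%) and 3 were not called, with a median log2 difference of 0.09. These shares were near the 34.8% higher and 35.9% lower of all genes tested. Reads shared with another model could be 41.4% of the count of Btrc (0.66), 1 of the 5 higher. Mafg, a small MAF protein that pairs with NRF2 on DNA, rose from 15.1 ± 1.16 CPM in spleen to 37.3 ± 2.84 in tumor (1.33, SE 0.09, edgeR adjusted p = 1.5e-07). Bach2, a repressor that competes for the same elements, rose from 46.8 ± 2.34 to 82.9 ± 4.67 CPM (0.85, SE 0.07, edgeR adjusted p = 7.2e-07). Its relative Bach1 was lower in tumor (6.06 ± 0.586 against 10.3 ± 1.09 CPM, -0.74, SE 0.11). Cul3, the scaffold of the ubiquitin ligase that KEAP1 serves, was also lower (71.8 ± 19.9 against 126 ± 2.90 CPM, -0.79, SE 0.14), as was the kinase gene Gsk3b (-0.46). The small MAF genes did not move together. Mafk, which had a higher CPM than Mafg in both tissues, was lower in tumor (-0.396, SE 0.079, edgeR adjusted p = 0.00085). Maff, the least abundant of them, was higher like Mafg.

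Of 17 tested textbook targets of NRF2 outside glutathione and thioredoxin, 6 were higher (35.3%), 7 were lower (41.2%) and 4 were not called, with a median of -0.02. These shares, too, were near those of all genes tested (34.8% and 35.9%). The median gene was G6pdx, the first enzyme of the pentose phosphate pathway, which was also the median of all genes tested. Hmox1, which encodes the heme-degrading enzyme heme oxygenase 1, gave 8.12, 8.23 and 6.85 CPM in the tumor libraries against 53.5, 56.0 and 55.7 in the spleen libraries. It was 6.97-fold lower in tumor (-2.80, SE 0.09, edgeR adjusted p = 3.4e-10). Blvrb, which encodes a biliverdin reductase, was lower too (2.49 against 19.0 CPM on average, -2.90, SE 0.11). The 13 macrophage and monocyte markers, of which Lyz2 was the highest in spleen at 91.1 CPM, were lower in tumor alongside these genes, and their part was not tested. Abcc1, a glutathione conjugate exporter (1.05), and Tkt, a transketolase of the pentose phosphate pathway (0.78), were higher.

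Genes of glutathione use, turnover and cystine import split as 12 higher (42.9%), 8 lower (28.6%) and 8 not called of 28 tested, with a median of 0.10. The shares over all genes tested were 34.8% higher and 35.9% lower. Counts of 8 of these 28 could hold over 20% of reads from near-identical or overlapping models, 3 of the 12 higher and 2 of the 8 lower. Slc3a2, the heavy chain of the cystine and large amino acid transporters, was 3.22-fold higher in tumor (306 ± 7.60 against 97.1 ± 2.94 CPM, 1.69, SE 0.06, edgeR adjusted p = 5.5e-10). The glutathione transferase genes Gstt1 (2.46, SE 0.15) and Gsto1 (1.12, SE 0.07) were also higher. Ggt1, which cleaves glutathione outside the cell, was 6.70-fold lower (23.7 ± 1.63 against 162 ± 3.87 CPM, -2.74, SE 0.07, edgeR adjusted p = 6.6e-11). Slc7a11, the cystine-specific light chain, was at 91.7 and 57.5 CPM, but reads shared with another model could be 76.5% of its count.

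In a list of the rest of the thioredoxin system and of the sestrin genes, 8 of 14 genes were higher (57.1%). Of the others, 4 were lower (28.6%, 1 of them uncertain by the same measure) and 2 were not called. The median of the list was 0.28. Over all genes tested, 34.8% were higher and 35.9% lower. The mitochondrial pair rose beside Txn1 and Txnrd1. Txn2 rose from 127 ± 2.98 CPM in spleen to 198 ± 7.84 in tumor (0.67, SE 0.06, edgeR adjusted p = 1.2e-06), and Txnrd2 rose by 0.83 (SE 0.08, edgeR adjusted p = 2.1e-06). Txnip, which encodes a protein that binds and inhibits thioredoxin, moved the other way. Its level was 70.8, 79.5 and 64.0 CPM in the tumor libraries against 511, 506 and 514 in the spleen libraries, 7.00-fold lower (-2.81, SE 0.08, edgeR adjusted p = 1.7e-10). Per kilobase of exon, Txnip stood at 0.129, 0.147 and 0.0993 of the Txn1 level in the tumor libraries and at 1.35, 1.45 and 1.40 of it in the spleen libraries. The inhibitor transcript was thus below the thioredoxin transcript in tumor and above it in spleen (two-sided exact permutation p = 0.1, the smallest possible, a ratio chosen after its values were seen). Sesn1, a sestrin gene, was also lower in tumor (22.1 ± 0.304 against 75.6 ± 1.17 CPM, -1.75, SE 0.06). Of the other sestrin genes, Sesn2 was higher (0.32) and Sesn3 was not called.

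Of 11 peroxidase genes that draw on these systems, 8 were higher (72.7%), 1 was lower (9.09%) and 2 were not called, with a median of 0.25. For this list and the next ones, the shares over all genes tested were 34.8% higher and 35.9% lower. Of the 8 higher, Prdx2, Prdx5 and Gpx4 are uncertain, with shared reads estimated at 21.5%, 21.6% and 104% of their counts. Prdx6, a peroxiredoxin that uses glutathione, was the clearest rise (197 against 120.5 CPM on average, 0.74, edgeR adjusted p = 6.5e-07), and Gpx3, a secreted glutathione peroxidase, was the fall (0.180 against 1.43 CPM, -2.94). The NADPH supply genes gave 6 higher (40%), 3 lower (20%) and 6 not called of 15 tested, with a median of 0.12. Among them the folate enzymes Mthfd1 (1.85) and Mthfd2 (1.72) rose and the isocitrate dehydrogenase gene Idh1 fell (-2.45). A list of selenoprotein synthesis factors and of selenoproteins gave 4 higher (28.6%), 4 lower (28.6%) and 6 not called of 14, with a median of 0.13. Among the synthesis factors, on which the selenoprotein TXNRD1 depends, Trnau1ap (0.69), Sephs2 (0.48) and Sephs1 (0.43) rose. Secisbp2 (-0.36) and Pstk (-0.41), also synthesis factors, fell, and reads shared with another model could be 49.9% of the Pstk count. Among the selenoproteins, Selenop (-1.27) and Msrb1 (-0.54) fell and Selenos (0.20) rose.

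**Figure D4:**
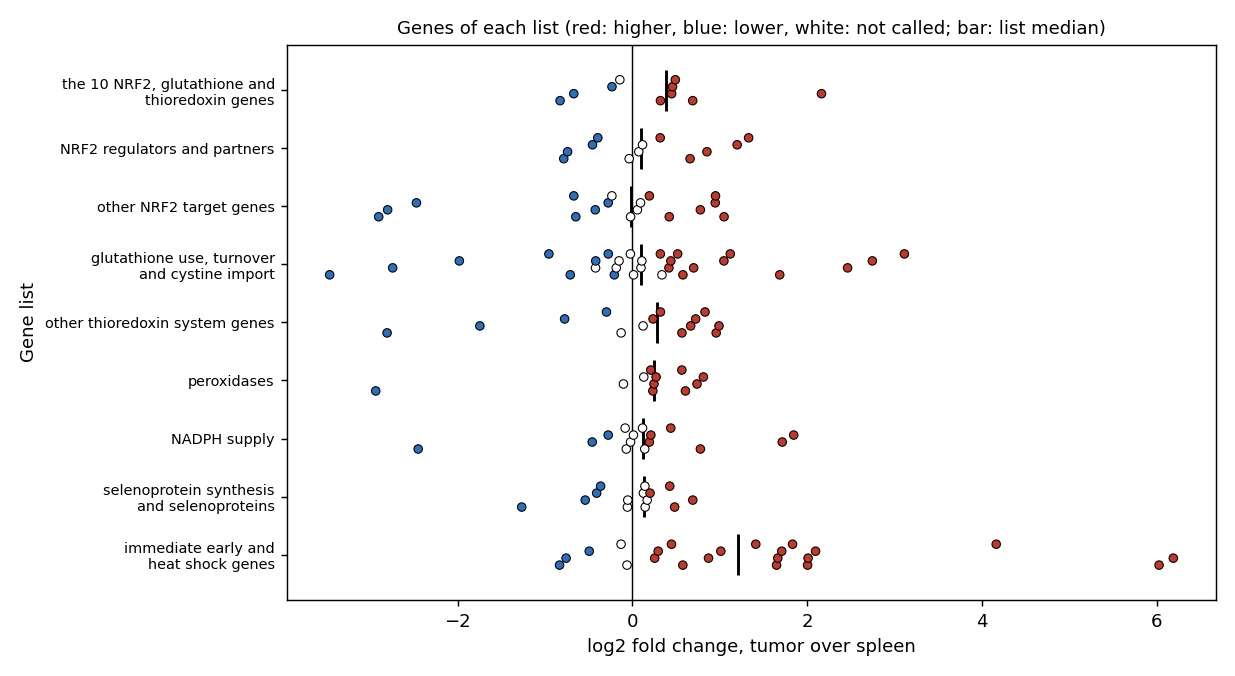
log2 differences of tumor over spleen for each tested gene of the 10 genes and of 8 related lists, with the median of each list. The medians run from -0.02 for other NRF2 targets to 1.21 for immediate early and heat shock genes, and genes above and below 0 occur in every list.

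Of 22 immediate early and heat shock genes, which cell handling can also raise, 17 were higher (77.3%) and 3 lower (13.6%), with a median of 1.21. The shares over all genes tested were 34.8% and 35.9%. Of the 17, 8 are uncertain because of shared reads. Every heat shock gene of the list was higher, whereas the immediate early genes were mixed. Atf3 (4.16), Fos (2.10), Egr1 (2.01) and Fosb (1.71) were higher, as were Dusp1 (0.87), Jun (0.58) and Jund (0.26, uncertain). The 3 lower were Zfp36 (-0.83), Btg2 (-0.76) and Ier2 (-0.49), and Junb and Ier3 were not called. The highest rises of the list, Hspa1a (6.19) and Hspa1b (6.03), belong to near-identical copies. A Percoll step is described for tumor cells and not for spleen cells, and the part of handling in the rise of Srxn1 was not tested.

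Among 138 genes of these lists, those with the profile most like Nfe2l2 over the 6 libraries were Btg2, Zfp36 and Ggct. The root mean square difference of their centred log2 CPM was 0.070, 0.083 and 0.10. As the libraries come from tumor and spleen only, this measure largely restates the difference between the tissues. That difference was -0.83 for Nfe2l2, -0.76 for Btg2, -0.83 for Zfp36 and -0.71 for Ggct. Btg2 and Zfp36 belong to the immediate early list. Among the other 9 genes described here, Nqo1 was the nearest at 0.207 and Srxn1 the farthest at 1.501.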

How the data were processed

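The authors deposited raw counts per gene from single reads of 50 bp, with no normalization. Listed in the submitters' processing notes are STAR 2.3, featureCounts, bcl2fastq 2.20.0.422 and the mm10 build. No source used here states the annotation release, the strand setting or what was done with reads that match several places. Kits for low-input cDNA and for stranded libraries were used, per the labels' protocols.

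Symbols, coordinates and exon lengths came from GENCODE M21: 54587 identifiers matched with their version and 567 without it, and 181 had no symbol. Every row named a gene. Libraries were grouped by their titles. Differential expression was tested on all 6 libraries with the quasi-likelihood test of edgeR 4.0.16 under R 4.3.3 (TMM scaling, filterByExpr at a minimum count of 10 and total of 15, Benjamini-Hochberg adjustment, threshold 0.05), and with glmTreat for the 2-fold null. The procedure was tested on simulated data. SE is the absolute log2 fold change over the square root of F. Exact permutation tests used SciPy 1.17.1. Alternatives used other scalings and filters, DESeq2 1.42.0, limma-voom 3.58.1, a replicate block and each library left out.

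Shared 50-base sequences and overlapping exons were read from GENCODE M21 transcripts. A gene was called uncertain when reads on shared stretches, estimated from the sharing gene's mean density, could exceed 20% of its count. Promoters are RefSeq's. The members and the lists were chosen with earlier results of these data known, and lists hold textbook members. Named genes are all 10 members, the 2 members of each list with the smallest p in each direction or any needed to spell out a small count (any member of the regulator, glutathione and thioredoxin lists), the highest marker of other cell types, and the 3 genes most like Nfe2l2. Some genes that this rule picks are not named, and some named immediate early genes and cell type markers lie outside it. The library codes share 1 ending per tissue. Should it mark a batch, that batch cannot be told apart from tissue.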

Additional observations from a re-analysis of the deposited data

How the results depend on the processing

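Tested against a 2-fold change instead of no change, edgeR called 1161 genes higher in tumor and 1864 lower. Of the 10 genes it called 1 higher and 0 lower (0 lower at an unadjusted p below 0.05 as well), since a larger difference is asked for. No other tool was run for that null. In the other analyses with all 10 genes, 6 were higher in each. The number lower was 4 with upper-quartile scaling and with library totals only, 2 in DESeq2, 2 to 4 when single libraries were left out, and 3 otherwise. With a replicate block, 6 were higher and 3 lower. Deviations of equal-numbered libraries correlated at -0.026, 0.037 and 0.012, under the 0.1 asked for pairing, so the main test used no pairing. Whether equal numbers mark the same mouse was not stated in the sources used here, and these correlations cannot settle it. The genes whose call moved were Nqo1 and Gclc, and the cause was not tested. Nqo1 gave -0.56 (edgeR adjusted p = 0.072) without P14 TIL replicate 1, -0.56 (0.093) without P14 Sp replicate 1 and -0.68 (0.074) in DESeq2, and it was not tested at a mean of at least 5 CPM. Gclc was called lower with upper-quartile scaling (-0.20, 0.025), library totals only (-0.17, 0.038), a mean of at least 5 CPM (-0.19, 0.021), without P14 TIL replicate 1 (-0.17, 0.043) and without P14 Sp replicate 3 (-0.19, 0.050). Of 150 values of the 10 genes in the alternatives, 0 changed sign. These include the values for the 2-fold null, which uses the main fit and so cannot change a sign. They also include Txn1 with its pseudogene added. Leaving out the low-count filter moved the median of all genes from -0.02 to -0.15.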
